A study of Mus musculus with 8 samples.

Results

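The genes described here are 38 markers of microglia and other phagocytes, read in ribosome-associated RNA that had been purified from midbrain dopaminergic neurons of mice given the neurotoxin MPTP or saline. They were taken by name from the 21761 genes of the deposited counts table, and all 38 were present. Microglia are the resident macrophages of the brain. In the resting state they carry receptors such as Cx3cr1, P2ry12 and Csf1r and patrol the tissue with fine processes. When neurons are injured, as they are in the substantia nigra after MPTP, microglia draw in these processes, take up debris and turn on lysosomal, adhesion and secreted protease genes. The RNA was purified from another cell type, and how RNA of these genes came to be in it was not tested.

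The MPTP libraries (n = 4) came from C57BL/6 mice that received MPTP-HCl at 30 mg/kg free base by intraperitoneal injection once daily for 5 days, and the saline libraries (n = 4) from C57BL/6 mice injected with saline on the same schedule. Tissue was taken 4 days after the last injection. The age of the mice, the promoter that drives the ribosome tag, and whether a library holds nigral neurons alone or nigral and tegmental neurons together are not stated in the sample labels, while the deposited table is named for SN. The members fell into 15 genes of resident microglia, 10 genes shared by most myeloid cells and 13 genes of phagocyte activation. Several belong to more than one state. Trem2 and Tyrobp also act in activated cells, and neurons of some regions transcribe Spp1.

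The list was drawn up with the comparison of MPTP and saline already known, Mmp12 being among the genes past the threshold. Differences of the members between the groups are therefore given as a description. Where members are said to pass a threshold, the share of all genes that passed stands beside it, and the pass is no independent evidence. Totals were 66450856 to 78892061 counts in the MPTP libraries and 54192354 to 69333470 counts in the saline libraries. Levels are in CPM, counts scaled by library total and trimmed mean of M-values. Saline 3 stood apart. Its mean log2 CPM over astrocyte and oligodendrocyte markers was 5.01, against 4.53 to 4.79 in the MPTP libraries and 3.96 to 4.27 in the other saline libraries, and its dopaminergic marker mean was the lowest of the 8 (7.68, against 7.86 to 8.09 in MPTP and 8.25 to 8.34 in the other saline libraries). A fit with the astrocyte and oligodendrocyte mean as a covariate is among the alternatives below. Beyond that, the part of these marker differences in the results was not tested. In bulk RNA, more phagocytes and more RNA per phagocyte cannot be told apart. Which cells the RNA of the members came from, phagocytes or the tagged neurons themselves, was not tested.

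The windows before the starts of Mmp12 and Cd68, the pair of members with the clearest separation of the groups, are shown because both hold strings known as binding sites of factors active in myeloid or stimulated cells. The strings searched were GAGGAA, the core of many sites of the myeloid factor PU.1, and TGANTCA, the site of AP-1, on both strands, and matches are in capitals. The sequences are from RefSeq on GRCm38.p6 and run 5′ to 3′ on the gene's strand up to the base before the annotated start. Mmp12 has a pair of annotated starts.
Mmp12, upstream start (chr9:7344147-7344396, plus strand): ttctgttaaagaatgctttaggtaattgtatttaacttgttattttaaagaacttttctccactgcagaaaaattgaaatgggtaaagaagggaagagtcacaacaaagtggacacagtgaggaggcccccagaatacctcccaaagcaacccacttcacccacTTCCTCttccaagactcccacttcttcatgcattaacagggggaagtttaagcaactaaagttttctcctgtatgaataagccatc
Mmp12, downstream start (chr9:7347124-7347373, plus strand): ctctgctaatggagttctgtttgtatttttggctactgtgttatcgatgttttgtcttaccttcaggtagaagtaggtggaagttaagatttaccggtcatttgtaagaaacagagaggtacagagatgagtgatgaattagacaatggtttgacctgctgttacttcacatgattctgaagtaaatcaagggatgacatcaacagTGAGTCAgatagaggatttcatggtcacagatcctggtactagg
Cd68 (chr11:69666171-69666420, minus strand): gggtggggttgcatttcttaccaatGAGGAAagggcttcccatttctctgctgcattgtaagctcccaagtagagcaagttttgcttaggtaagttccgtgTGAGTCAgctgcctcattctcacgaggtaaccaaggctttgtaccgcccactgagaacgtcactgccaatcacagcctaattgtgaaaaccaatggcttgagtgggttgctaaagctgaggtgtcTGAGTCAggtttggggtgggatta
The upstream window of Mmp12 held 1 match to GAGGAA, on the opposite strand and 80 bases from the start, and the downstream window held 1 match to TGANTCA, 37 bases from the start. The window of Cd68 held 1 match to GAGGAA and 2 to TGANTCA, the nearer one 17 bases from the start. Of the 29 members with a RefSeq window of 250 bases, 15 had a match to GAGGAA at some start, against 25.3% of the 16524 genes with such windows. A match to TGANTCA stood in 5 of the 29 members, namely Mmp12, Cd68, Itgax, Trem2 and Cybb, against 7.30% of genes. These matches are letters in a window and do not show binding.

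The members were present at low levels. The mean over the 8 libraries was under 1 CPM for 20 members, between 1 and 5 CPM for 16, and above 5 CPM for P2ry12 and Spp1. In sum the 38 members held 65.0 to 81.0 CPM in the MPTP libraries and 50.9 to 85.1 CPM in the saline libraries, while 16 dopaminergic genes held 9830 to 11540 CPM in MPTP and 8841 to 14753 CPM in saline. Counts of 0 in at least 1 library occurred for 6 members. The spread between replicates was wide. The median coefficient of variation was 40.2% among MPTP libraries and 48.8% among saline libraries, where counting error alone would give a median of 13.8%. Over all tested genes, of any level, the median among saline libraries was 14.8%. Genes as low as the members were not compared separately.

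**Figure D1:**
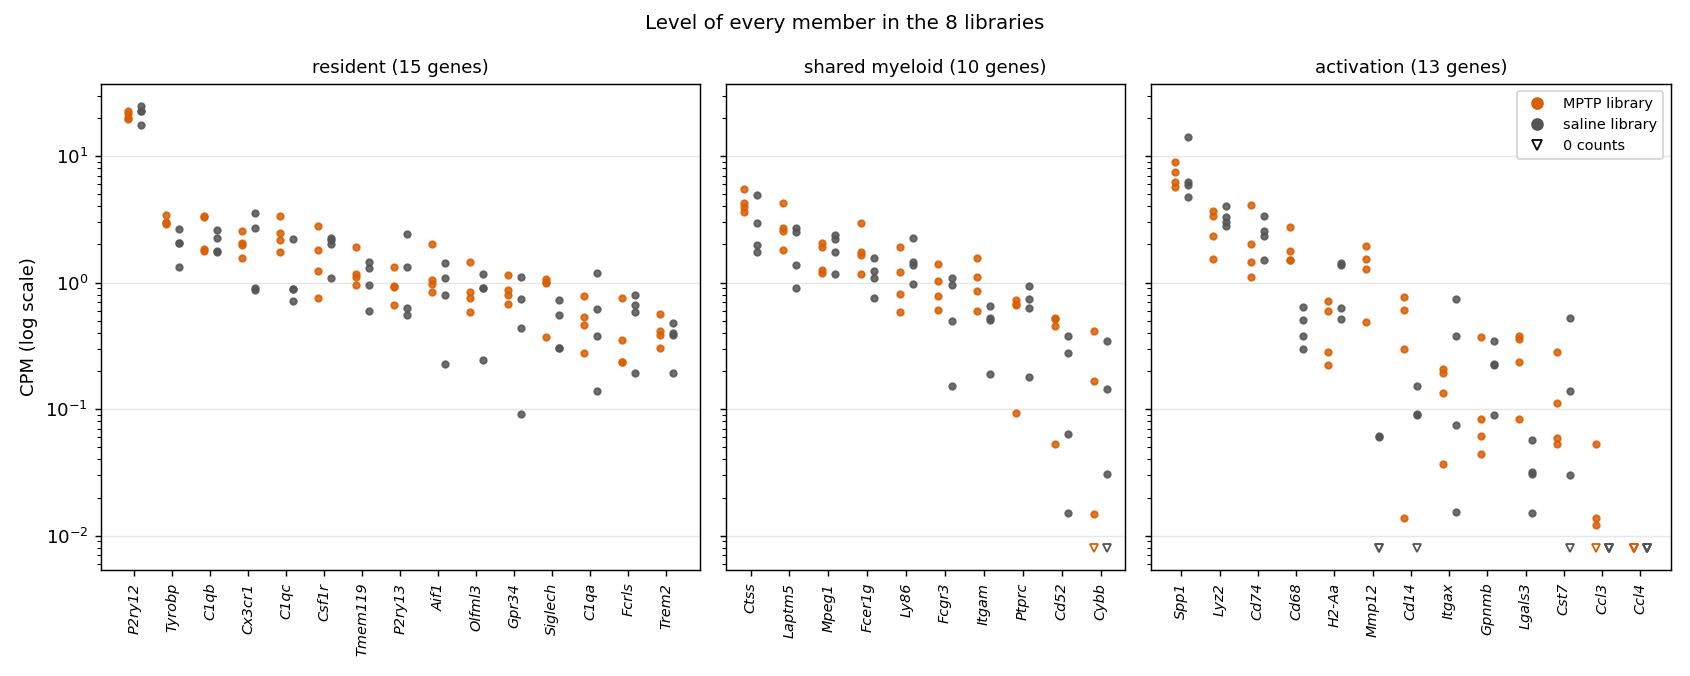
Level of each of the 38 members in every library, in CPM on a log axis, with the genes of each class ordered by mean level. Orange points are MPTP libraries, grey points saline libraries and open triangles libraries with 0 counts. P2ry12 (mean 21.3 CPM) stands above all other members, and the orange and grey points of Mmp12 and Cd68 are apart.

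The level of P2ry12, the ADP receptor that steers microglial processes, stood apart from those of the other resident genes. It was at 19.4, 22.6, 21.6 and 19.8 CPM in MPTP libraries 1 to 4, against 22.5, 17.5, 22.5 and 24.9 CPM in saline libraries 1 to 4. The groups overlapped, and the log2 fold change was -0.07 (SE 0.12). Per kilobase of exon, P2ry12 stood at 8.38 CPM, against 0.448 CPM for Cx3cr1, 0.509 CPM for Tmem119 and 0.432 CPM for P2ry13. P2ry12 (chromosome 3, 59216272 to 59262871, minus strand, GENCODE vM21 on GRCm38) lies inside Med12l, a gene of the Mediator complex family that spans 59005825 to 59318682 on the plus strand, and shares 9 exonic bases with it. Med12l averaged 77.8 ± 2.31 CPM in MPTP and 82.7 ± 7.40 CPM in saline (mean ± SD, 4 libraries each). Per kilobase of exon it stood at 6.29 CPM, below P2ry12. P2ry12 counts amounted to 24.3% to 28.7% of Med12l counts in MPTP libraries and 23.9% to 30.4% in saline libraries. The cDNA kit does not mark the strand, and no source names the strand setting of the counts. Reads of Med12l within P2ry12 cannot be told apart from P2ry12 reads, and their part in the counts was not tested. The 9 shared bases are 0.353% of the P2ry12 exons. P2ry13 lies inside Med12l too, on the other strand, and shares no exonic base with it. Gpr34 lies in the same way inside Cask. The summed resident levels below leave P2ry12 out.

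Among the resident genes, most differences were small beside the spread. Of the 15 members, all tested, 10 had a log2 fold change above 0 and 5 below 0, with a median of 0.20, while the median over all 15999 tested genes was 0.00 and 50.1% of those genes were above 0. None of the 15 passed an adjusted p of 0.05 in edgeR's quasi-likelihood test, where 0.106% of all tested genes passed in either direction. At an unadjusted p under 0.05 there were 2 higher and 0 lower, where 4.28% of all tested genes were higher and 4.5% lower at that level, and DESeq2 called 0. The fold changes ran from -0.50 for Fcrls to 1.05 for C1qc. Astrocyte and oligodendrocyte genes had medians of 0.24 and 0.22, close to the resident median. The resident median was 0.01 with the astrocyte and oligodendrocyte marker mean as a covariate.

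Cx3cr1, the receptor through which neuronal fractalkine restrains microglia, was at 1.57, 2.56, 2.07 and 1.97 CPM in MPTP 1 to 4, against 2.69, 0.897, 3.51 and 0.875 CPM in saline 1 to 4. The MPTP libraries lay inside the saline range, and the log2 fold change was 0.04 (SE 0.42). Csf1r, the receptor that keeps microglia alive, was at 1.79, 2.81, 1.24 and 0.755 CPM in MPTP, against 2.23, 1.08, 2.18 and 2.0 CPM in saline, again with overlap (log2 fold change -0.18, SE 0.41). Csf1r shares 873 exonic bases (15.1% of its own) with Hmgxb3 on the other strand. Tmem119, P2ry13, Aif1, Trem2, Fcrls, Gpr34 and Olfml3 overlapped between groups as well, with mean levels of 0.390 to 1.18 CPM. Siglech, a sialic acid-binding lectin of microglia, was at 1.07, 0.983, 1.01 and 0.371 CPM in MPTP, against 0.306, 0.553, 0.730 and 0.304 CPM in saline. MPTP 4 alone of its group lay inside the saline range (log2 fold change 0.85, SE 0.57).

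The 3 chains of the complement recognition protein C1q, whose genes lie side by side on chromosome 4, differed in their fold changes. C1qc was at 2.48, 3.36, 1.75 and 2.15 CPM in MPTP, against 0.719, 0.882, 2.21 and 0.894 CPM in saline. Saline 3 lay within the MPTP range and the other saline libraries lay below it (log2 fold change 1.05, SE 0.40, and 1.55 without saline 3). C1qb was at 3.27, 3.35, 1.78 and 1.84 CPM in MPTP, against 1.76, 1.75, 2.60 and 2.24 CPM in saline, with a log2 fold change of 0.29 (SE 0.31). C1qa, at 0.278 to 0.789 CPM in MPTP and 0.138 to 1.19 CPM in saline, had -0.17 (SE 0.68). C1qc over C1qb, as a ratio of counts, was 0.757 to 1.17 in MPTP libraries, against 0.398 to 0.504 in saline 1, 2 and 4 and 0.848 in saline 3. A C1qc value of this contrast was known beforehand. How many other gene pairs differ as much was not computed, and nothing is read from the ratio.

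Tyrobp, the signalling adaptor of Trem2 and other activating receptors, was the 1 resident member whose groups did not overlap. It was at 2.99, 3.39, 2.90 and 2.97 CPM in MPTP, against 1.33, 2.05, 2.65 and 2.04 CPM in saline (log2 fold change 0.60, SE 0.28). All MPTP libraries lay close together just above saline 3. Among all tested genes, 2.04% were apart as higher in MPTP and 2.14% as lower. The Tyrobp partner Trem2 averaged 0.417 ± 0.108 CPM in MPTP and 0.363 ± 0.120 CPM in saline (mean ± SD, 4 libraries each). Its log2 fold change was 0.20 (SE 0.62).

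The genes shared by most myeloid cells mostly had fold changes above 0, without separating the groups. Of the 10 members, all tested, 7 were above 0 and 3 below 0, with a median log2 fold change of 0.54. No member passed in edgeR or DESeq2, none had an unadjusted p under 0.05, and in none were the groups apart. The median was 0.34 with the astrocyte and oligodendrocyte marker mean as a covariate.

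Ctss, a cathepsin of microglial lysosomes, was at 3.96, 5.44, 3.63 and 4.24 CPM in MPTP, against 1.99, 1.75, 4.92 and 2.97 CPM in saline. Saline 3 was the only saline library inside the MPTP range (log2 fold change 0.57, SE 0.31). Laptm5, a lysosomal membrane protein, was at 4.22, 2.71, 1.82 and 2.56 CPM in MPTP, against 1.38, 0.897, 2.49 and 2.68 CPM in saline (log2 fold change 0.61, SE 0.37). Fcer1g, the adaptor of Fc receptors, was at 2.94, 1.74, 1.64 and 1.17 CPM in MPTP, against 1.09, 1.23, 1.56 and 0.761 CPM in saline (log2 fold change 0.69, SE 0.39). Both pairs of groups overlapped.

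Itgam, the alpha chain of an integrin that binds complement-coated particles, was at 0.854, 1.11, 1.55 and 0.596 CPM in MPTP, against 0.657, 0.524, 0.508 and 0.190 CPM in saline. MPTP 4 lay below saline 1, and the other MPTP libraries were above all saline libraries (log2 fold change 1.12, SE 0.55). In GENCODE vM21, 68.7% of its exonic bases also belong to Gm49368 on the same strand, so its count is uncertain if the authors' annotation held both. Fcgr3, an activating Fc receptor, was at 1.02, 1.40, 0.607 and 0.782 CPM in MPTP, against 0.153, 0.494, 1.08 and 0.951 CPM in saline (log2 fold change 0.51, SE 0.59). Cd52, a small surface glycoprotein of leukocytes, was at 0.451, 0.526, 0.518 and 0.0530 CPM in MPTP, against 0.275, 0.0150, 0.0635 and 0.380 CPM in saline. Its counts were 38 at most in any library, the groups overlapped through MPTP 4, and the log2 fold change was 1.08 (SE 0.91). Cd52 shares 172 exonic bases (14.5% of its own) with Crybg2 on the other strand.

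The myeloid genes Ly86, Mpeg1 and Ptprc had fold changes below 0. Ly86, a partner of a Toll-like receptor homologue, was at 0.585, 0.817, 1.21 and 1.90 CPM in MPTP, against 1.44, 1.38, 2.25 and 0.970 CPM in saline (log2 fold change -0.42, SE 0.44). Mpeg1, a pore-forming protein of macrophages, was at 1.18, 1.26, 1.92 and 2.05 CPM in MPTP, against 2.37, 1.75, 2.19 and 1.16 CPM in saline (log2 fold change -0.22, SE 0.35). Both overlapped. The leukocyte phosphatase Ptprc had -0.20 (SE 0.70). The oxidase subunit Cybb, with 0 to 34 counts a library, had 0.19 (SE 1.21), too imprecise to give a direction.

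The activation genes split. Of the 13 members, 9 were tested, 3 of them with a log2 fold change above 0 and 6 below 0. The median was -0.18, and -0.15 over the 12 members with any count when no filter was applied. The 3 above 0 were Mmp12, Cd14 and Cd68, at 5.29, 2.33 and 2.04. Mmp12 was the 1 member past the all-gene threshold, where 0.0750% of all tested genes passed as higher and 0.0313% as lower. The members were chosen with that result known, and nothing is read from it. In edgeR, Mmp12 missed the threshold without MPTP 1, MPTP 3, MPTP 4 or saline 4, where its log2 fold change was 5.31, 5.21, 5.04 and 4.95, and with the replicate number as a block (5.25).

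Mmp12 encodes the macrophage metalloelastase, a secreted protease that digests elastin and other matrix. Its counts were 104, 35, 103 and 146 in MPTP 1 to 4, against 4, 4, 0 and 0 in saline 1 to 4. That is 1.27, 0.485, 1.52 and 1.93 CPM in MPTP, against 0.0612, 0.0598, 0 and 0 CPM in saline. MPTP 2, the lowest of its group, lay well above the highest saline library. A count of 0 allows up to 0.0476 CPM in saline 3 and 0.0571 CPM in saline 4, counting error only. The mean CPM was 43.1 times higher in MPTP, and the fitted log2 fold change was 5.29 (SE 0.88). With 8 saline counts in all, the size is loosely set, and it ran from 4.90 to 7.18 over the alternatives. Mmp12 passed the low-count filter through the MPTP libraries, as no saline library held 10 counts. The gene (chromosome 9, 7344381 to 7369499, plus strand) has 157 exonic bases (2.17%) in common with Mmp1b of the other strand. Mmp1b itself was untested, with so few counts that it did not pass the filter.

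Cd68, a lysosomal membrane glycoprotein that marks phagocytosing macrophages, was at 1.51, 1.51, 1.78 and 2.72 CPM in MPTP, against 0.505, 0.299, 0.635 and 0.380 CPM in saline. Every MPTP library was above every saline library, saline 3 included. The log2 fold change was 2.04 (SE 0.44) and ran from 1.81 to 2.25 over the alternatives. Cd68 passed in DESeq2, and in edgeR without saline 3, but not in edgeR with all 8 libraries. DESeq2 called 0.156% of tested genes as higher, and edgeR without saline 3 called 0.853%. Cd68 (chromosome 11, 69664213 to 69666153, minus strand) begins 782 bases after the end of Eif4a1, a translation initiation helicase gene on the same strand. Eif4a1 averaged 124 ± 5.14 CPM in MPTP and 137 ± 12.8 CPM in saline (mean ± SD, 4 libraries each). Cd68 counts were 1.17% to 2.11% of Eif4a1 counts in MPTP libraries and 0.221% to 0.533% in saline libraries, and these ranges did not overlap.

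Lgals3 and Cd14 had higher means in MPTP, on few counts. Lgals3, a galectin of phagocytes and of injured neurons, was not tested and was picked out after its values were seen. It had 31, 6, 16 and 27 counts in MPTP, against 2, 1, 2 and 3 counts in saline. The groups were apart, though MPTP 2 came close to saline. Cd14, a co-receptor for bacterial lipids, had 63, 1, 20 and 46 counts in MPTP, against 6, 6, 0 and 8 in saline. MPTP 2 was as low as saline, and the log2 fold change of 2.33 carried an SE of 1.03. In Mmp12, Lgals3 and Cd14 alike, MPTP 2 was the lowest MPTP library. For Ccl3, a chemokine of activated microglia, there were 1, 1, 0 and 4 counts in MPTP and 0 in every saline library, and the related Ccl4 had 0 counts in all 8.

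**Figure D2:**
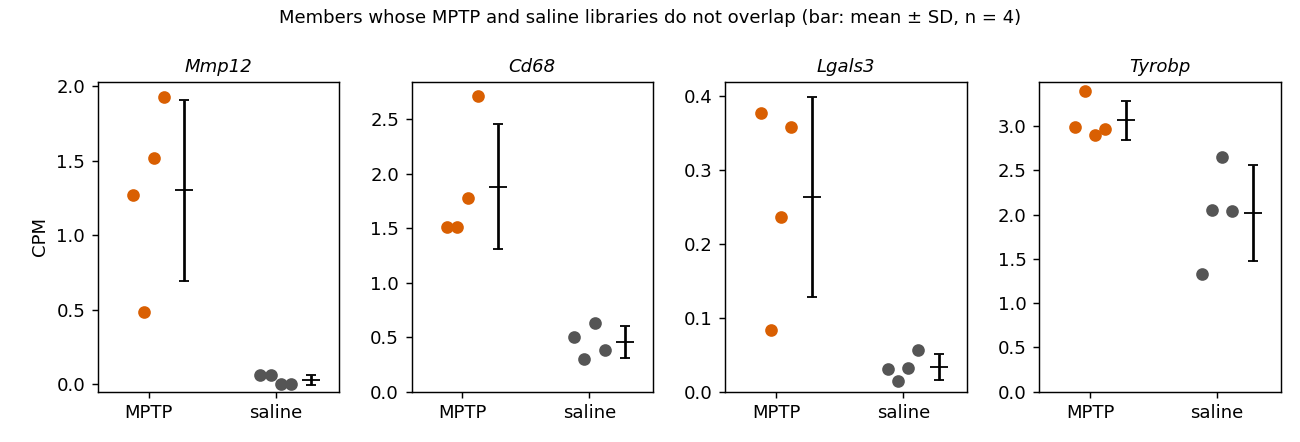
CPM of the 4 members whose MPTP libraries (orange) and saline libraries (grey) do not overlap, with mean and SD beside the points (n = 4 each). Lgals3 was not tested. Among all tested genes, 2.04% were apart as higher in MPTP and 2.14% as lower. Mmp12 lies at or near 0 in saline, while Tyrobp differs by a smaller margin, with saline 3 at 2.65 CPM just below the MPTP libraries.

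The other tested activation genes had fold changes below 0. Spp1, which encodes the secreted glycoprotein osteopontin, was at 5.72, 8.99, 7.40 and 6.24 CPM in MPTP, against 6.22, 4.76, 14.2 and 5.88 CPM in saline (log2 fold change -0.13, SE 0.28). Saline 3 alone was high, and the mean of the other saline libraries was 5.62 CPM. Lyz2, the lysozyme of macrophages, was at 3.66, 2.34, 3.33 and 1.54 CPM in MPTP, against 2.78, 4.04, 3.32 and 3.02 CPM in saline (log2 fold change -0.28, SE 0.29). Its groups overlapped.

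The pair of genes of class II antigen presentation overlapped between groups. Cd74, the invariant chain that escorts class II molecules, was at 1.45, 4.06, 1.10 and 2.0 CPM in MPTP, against 3.36, 2.53, 2.33 and 1.5 CPM in saline (log2 fold change -0.18, SE 0.39). H2-Aa, a class II chain, was at 0.719, 0.595, 0.281 and 0.225 CPM in MPTP, against 1.38, 0.628, 1.43 and 0.514 CPM in saline (log2 fold change -1.11, SE 0.59). The lower H2-Aa libraries were MPTP 3 and MPTP 4. A few genes known from the disease-associated microglial state had low counts. Itgax (log2 fold change -1.07, SE 0.97), Gpnmb (-0.64, SE 0.87) and Cst7 (not tested) had at most 39, 28 and 33 counts in any library.

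**Figure D3:**
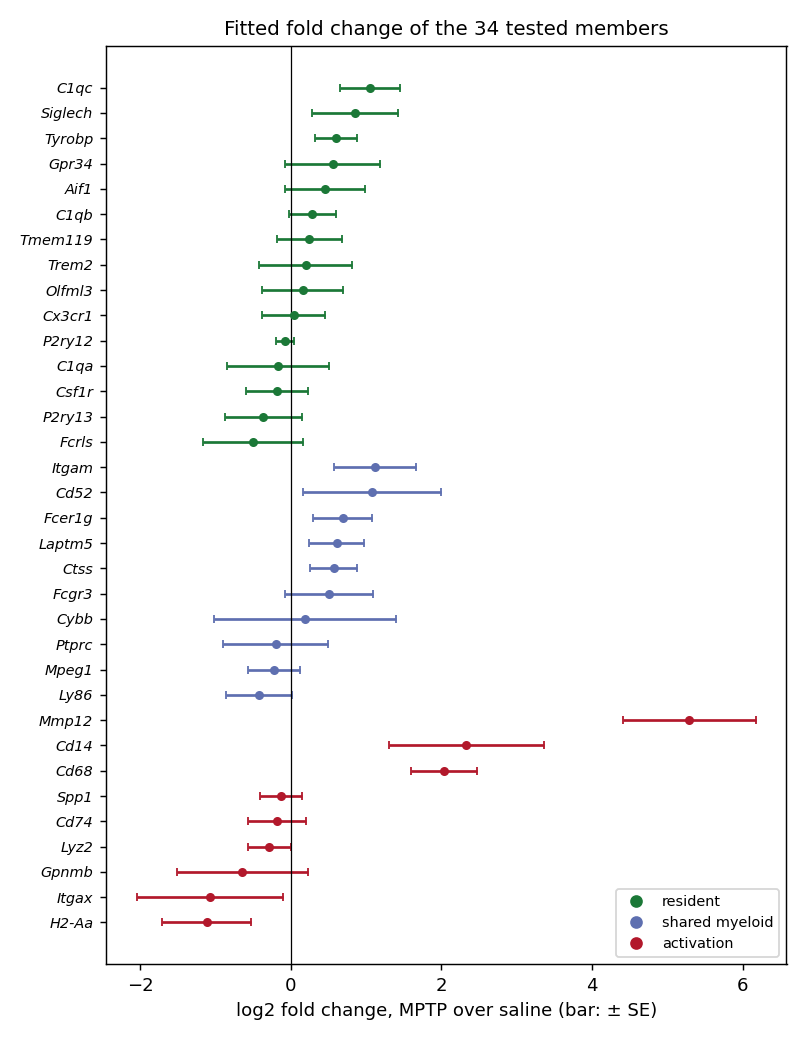
Log2 fold change, MPTP over saline, of the 34 tested members with bars of 1 SE, grouped by class. Mmp12 (5.29), Cd14 (2.33) and Cd68 (2.04) stand to the right, and the resident and shared myeloid genes lie between -0.50 and 1.12.

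Set side by side library by library, the resident class overlapped between groups, and whether the activation class did depended on Mmp12. The mean log2 CPM of the resident class was 0.46, 0.71, 0.41 and 0.16 in MPTP 1 to 4, against -0.21, -0.10, 0.83 and 0.01 in saline 1 to 4. Saline 3 was the highest of all 8, and 11 of the 15 resident genes had their highest saline level in it. The activation class was at -1.14, -1.53, -1.42 and -1.04 in MPTP, against -1.87, -2.17, -1.67 and -1.96 in saline. With Mmp12 in the class, all MPTP libraries were above all saline libraries. Without it the class was at -1.27, -1.58, -1.60 and -1.20 in MPTP, against -1.74, -2.06, -1.39 and -1.70 in saline, and saline 3 lay above MPTP 2 and MPTP 3. The shared myeloid class overlapped, with -0.70 to 0.24 in MPTP and -0.76 to -0.04 in saline.

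Activation minus resident, within a library, was -1.60, -2.24, -1.83 and -1.20 in MPTP, against -1.66, -2.07, -2.51 and -1.98 in saline. The means were -1.72 ± 0.44 in MPTP and -2.05 ± 0.35 in saline (mean ± SD, 4 libraries each), 0.33 apart, which is smaller than the SD within either group. MPTP was higher in 12 of the 16 pairings of an MPTP with a saline library. Without Mmp12 the difference was 0.01, and without Mmp12, Cd68, Lgals3 and Cd14, a choice made after their values were seen, it was -0.52.

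Each activation gene was also set against the resident sum of its library. The resident genes without P2ry12 summed to 19.4, 24.0, 17.7 and 15.5 CPM in MPTP, against 13.3, 12.3, 23.6 and 13.6 CPM in saline. Cd68 amounted to 7.79%, 6.28%, 10% and 17.5% of that sum in MPTP 1 to 4, against 3.78%, 2.44%, 2.69% and 2.79% in saline 1 to 4. In MPTP 4 the resident sum was the lowest of its group and Cd68 and Mmp12 the highest. Mmp12 amounted to 6.54%, 2.02%, 8.61% and 12.4% in MPTP, against 0.458%, 0.487%, 0% and 0% in saline. H2-Aa lay the other way, at 3.71%, 2.48%, 1.59% and 1.45% in MPTP, against 10.3%, 5.12%, 6.06% and 3.77% in saline. These shares did not overlap, whereas the CPM of H2-Aa did. How many of all genes are apart on this ratio was not computed, and nothing is read from these separations. The other 10 activation genes overlapped between groups, among them Lyz2, at 9.74% to 18.9% in MPTP and 14.1% to 32.9% in saline. Ccl4, with 0 counts in every library, is counted among them. Saline 3 had a resident sum near that of MPTP 2, with Cd68 at 2.69% and Mmp12 at 0%. It is 1 library, and whether the amount of resident RNA bears on these shares was not tested.

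**Figure D4:**
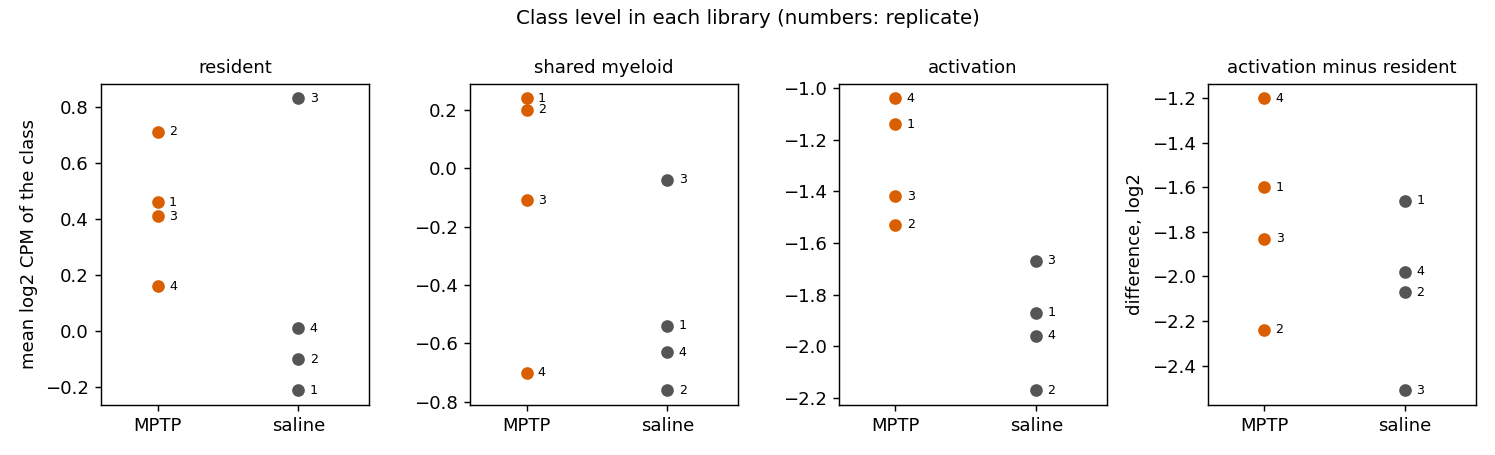
Mean log2 CPM of the resident, shared myeloid and activation classes and the activation minus resident difference in each library, with the replicate number beside the point. Saline 3 is at 0.83 in the resident panel, above all MPTP libraries, and at -2.51 in the difference panel, the lowest of all.

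**Figure D5:**
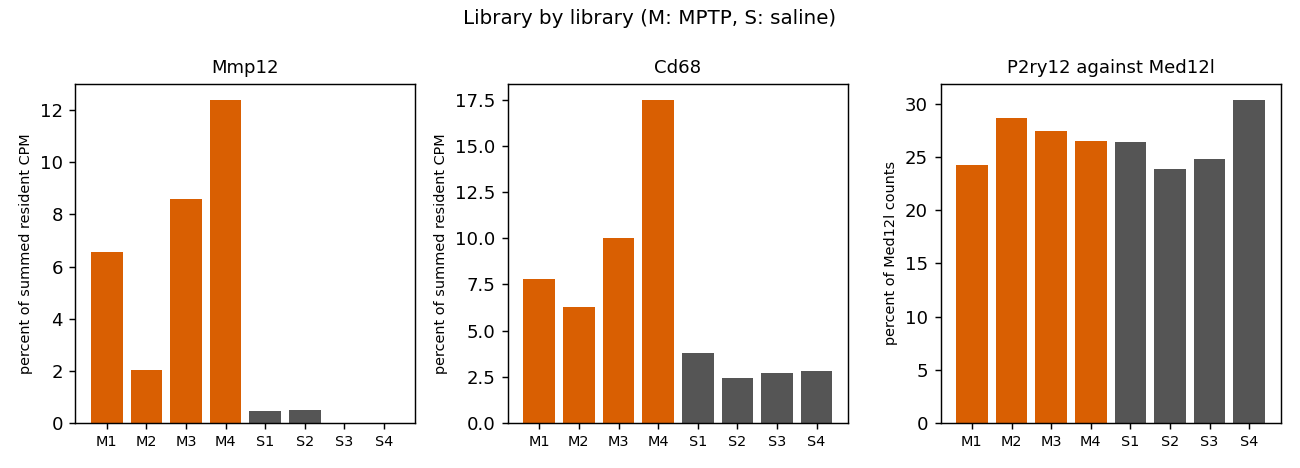
Mmp12 and Cd68 as percent of the summed CPM of the resident genes without P2ry12, and P2ry12 as percent of Med12l counts, in each library (orange, MPTP; grey, saline). Cd68 is at 6.28% or more in MPTP libraries and 3.78% or less in saline libraries, while the P2ry12 share of Med12l lies between 23.9% and 30.4% throughout.

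In all, 34 of the 38 members were tested. The groups did not overlap in 3 of those 34, each higher in MPTP (Mmp12, Cd68 and Tyrobp), where 2.04% of all tested genes were apart as higher and 2.14% as lower. A log2 fold change of at least 1 was found for 6 members, against 1.37% of all tested genes, and one of -1 or lower for 2, against 1.56%. Since the members were chosen with this contrast known, nothing is read from these shares. Without saline 3, edgeR called 3 members, Mmp12, Cd68 and C1qc, all higher, where it called 1.84% of all tested genes in either direction.

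Other genes of phagocyte pathways and markers of other cell types were read from 15 lists. Among the 242 such genes in the table, 186 were tested and 0 passed in edgeR, 24 had an unadjusted p under 0.05, against 8.78% of all tested genes, and DESeq2 called 1, the potassium channel gene Kcnj6 of the dopaminergic list. Without saline 3, edgeR called 18. They were 3 astrocyte and 6 oligodendrocyte genes, all higher, 4 dopaminergic genes, all lower, and Fth1, Apoe, Timp3, Clu and H2-D1, all higher, in the same fit that called Cd68 and C1qc. Of 20 further resident microglia genes, 11 were above 0 and 9 below 0 (median log2 fold change 0.04). The checkpoint receptor gene 4632428N05Rik (Vsir) averaged 2.97 ± 0.841 CPM in MPTP and 1.56 ± 0.384 CPM in saline (mean ± SD, 4 libraries each, log2 fold change 0.93, edgeR adjusted p = 0.415). The transcription factor gene Sall1, also transcribed outside microglia, had 0.34 (edgeR adjusted p = 0.491).

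Of 23 tested further activation genes, 18 were above 0 and 5 below 0 (median 0.20), led by the ferritin chain Fth1 (0.36, edgeR adjusted p = 0.415) and the tetraspanin Cd9 (0.53, edgeR adjusted p = 0.492). Many of them are also expressed by neurons and astrocytes. Without saline 3, Fth1 and Apoe of this list passed in edgeR. Of 15 other tested metalloproteinase and inhibitor genes, 10 were above 0 and 5 below 0 (median 0.09), and those with the smallest p were the inhibitor Timp3 (0.43, edgeR adjusted p = 0.506) and Mmp17 (0.34, edgeR adjusted p = 0.606). The related Mmp3, Mmp8, Mmp10 and Mmp13 did not pass the low-count filter.

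Ligands for microglial receptors had 10 genes above 0 and 4 below 0 of 14 (median 0.17). The extracellular chaperone Clu (0.38, edgeR adjusted p = 0.321) and the lipid carrier Apoe (0.47, edgeR adjusted p = 0.492) came first. Without saline 3 both passed in edgeR, in the fit that also called 3 astrocyte and 6 oligodendrocyte genes. Of 15 tested complement genes, 11 were above 0 and 4 below 0 (median 0.32), with Clu again and the C1 inhibitor gene Serping1 (0.70, edgeR adjusted p = 0.519) first. Of 11 tested genes of signalling below Fc receptors and Tyrobp, 7 were above 0 and 4 below 0 (median 0.03). The kinase gene Prkcd (0.82, edgeR adjusted p = 0.556) and the phagocytosis-restraining receptor gene Sirpa (0.16, edgeR adjusted p = 0.629) led. Prkcd averaged 11.6 CPM in MPTP and 6.58 CPM in saline, and Sirpa 69.8 and 62.5 CPM. Tyrobp averaged 3.06 and 2.02 CPM. Which cells the RNA of Prkcd and Sirpa came from was not tested. Of 20 chemokine and cytokine genes only 5 passed the low-count filter, 2 above 0 and 3 below 0, with Il18 (-0.58, edgeR adjusted p = 0.448) and Cxcl16 (0.54, edgeR adjusted p = 0.728) first.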

How the data were processed

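Sequencing covered 8 libraries of ribosome-bound RNA. The cDNA kit named in the labels' protocols amplifies small inputs and marks neither strand nor molecule. For all libraries the authors deposited raw counts, 1 value per gene and library. The submitters' processing notes name TopHat2 2.0.8 and mm10. Counting tool, annotation and strand setting: not given in the sources used here. All 8 columns matched a sample by title, and 27 symbols stored as dates were restored by Entrez identifier. Genes without a symbol (90) held at most 0.0560% of counts.

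The deposited counts were fitted in R 4.3.3 by edgeR 4.0.16: TMM scaling, filterByExpr by group (minimum count 10; 15999 genes remained), robust quasi-likelihood F-test, MPTP minus saline, Benjamini-Hochberg adjustment over all tested genes, threshold 0.05. The SE is the size of the log2 fold change over the square root of F. Class levels are mean log2 CPM with a prior count of 2. DESeq2 1.42.0 was an alternative. The fit was tested on simulated counts. No pair of replicates agreed within sampling noise. The labels do not say that replicates are separate animals, so p-values measure only the spread of these samples, possibly a technical one. Libraries were sequenced in pairs; the labels do not say which.

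The members and lists were chosen with earlier results of these data known. Values in every library are given for Mmp12 and, per class, the 6 members with the highest mean CPM and the 2 with the largest fold change; from each other list the 2 genes with the smallest p are named. Lgals3, C1qa and Ccl3 are given outside that rule, after their values were seen. Of the list genes, 3 were matched by identifier under an older symbol and 2 were not used here. Positions are from GENCODE vM21 on GRCm38. Of the 38 members, 29 had a RefSeq window.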

Additional observations from a re-analysis of the deposited data

Results flagged for a closer look

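Of 52 groups of 4 libraries examined (22 members and 4 class levels, each in MPTP and saline), 4 held a library far from the other 3. Chance alone flags about 1 in 20 such groups. C1qc in saline 3 had 2.21 CPM, the other saline libraries 0.719 to 0.894 CPM. Spp1 in saline 3 was at 14.2 CPM, against 4.76 to 6.22 CPM. Siglech in MPTP 4 had 0.371 CPM, the other MPTP libraries 0.983 to 1.07 CPM, and Cd52 in MPTP 4 was at 0.0530 CPM, against 0.451 to 0.526 CPM.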

How the results depend on the processing

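The log2 fold change of Mmp12 was 5.29 and stayed between 4.90 and 5.82 when 1 library was left out, but was 7.18 with the astrocyte and oligodendrocyte marker mean as a covariate; the cause was not tested. Mmp12 passed the threshold in 9 of the 14 alternatives that tested it. The number of members called was 1, and 0 with a mean CPM of at least 1 (where Mmp12 was not tested), 0 with the replicate block, 2 with DESeq2, and 0 to 3 when 1 library was left out: 0 without MPTP 1, MPTP 3, MPTP 4 or saline 4, and 3 without saline 3. Over all genes 17 were called, 53 with DESeq2, 14 with the replicate block, and 8 to 297 when 1 library was left out (8 without MPTP 4, 10 without saline 1, 297 without saline 3). In the other lists 0 genes were called, 1 with DESeq2 and 0 to 18 when 1 library was left out, the 18 without saline 3. The activation median of -0.18 ran from -0.24 to 0.07 when 1 library was left out, the 0.07 without saline 3. The resident median (0.20) ran from 0.05 to 0.42, the 0.42 without saline 3, and was 0.01 with the covariate; the shared myeloid median (0.54) ran from 0.31 to 0.79. Activation minus resident (0.33) ran from 0.16 to 0.51 when 1 library was left out, was 0.03 from summed CPM or from members with a mean of at least 1 CPM, and was -0.52 without Mmp12, Cd68, Lgals3 and Cd14, an alternative added after seeing the data, like those that leave out P2ry12 or set Ccl3 at its bound. Same-numbered libraries did not deviate together (correlations of -0.12 to 0.04, against -0.07 to 0.09 for differently numbered ones). So few correlations cannot exclude that the numbers pair the samples. Beside the 44 values of Mmp12, Cd68 and C1qc, of which 1 moved by more than the spread (Mmp12, 7.18, above), there were 878 single-gene values under alternatives. Of these, 866 kept their place, 10 passed the threshold where they had not, and 2 moved by more than the spread (Gpnmb, -1.77 without MPTP 4, and Cd14, 4.96 with the covariate). Changes of sign were counted for called genes only, and none of these genes was called in the main fit, so none could be counted. Values that kept their place include changes of sign. Cybb went from 0.19 to -1.09 without MPTP 1, and C1qa from -0.17 to 0.45 without saline 3. With 8 saline counts, depth limits the size of the Mmp12 change.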

Other observations

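Markers of other blood and brain macrophages were also present at low levels. Of 12 border-associated macrophage genes, 8 were tested, with 5 above 0 and 3 below 0 (median log2 fold change 0.14) and sums of 9.15 to 12.9 CPM in MPTP and 9.59 to 13.2 CPM in saline. The mannose receptor gene Mrc1 averaged 3.97 ± 0.774 CPM in MPTP and 5.37 ± 2.19 CPM in saline (mean ± SD, 4 libraries each), above most members. Its log2 fold change was -0.44 (edgeR adjusted p = 0.661), and that of Colec12 was 0.28 (edgeR adjusted p = 0.892). Of 13 monocyte and neutrophil listed genes only 2 passed the low-count filter, Ly6c2, averaging 1.13 ± 0.746 CPM in MPTP and 0.313 ± 0.254 CPM in saline (mean ± SD, 4 libraries each, log2 fold change 1.84, edgeR adjusted p = 0.451), and Mpo (-0.89, edgeR adjusted p = 0.725), and the list summed to 1.44 to 2.52 CPM in MPTP and 1.29 to 2.85 CPM in saline. Of 11 lymphocyte listed genes 3 were tested, among them Cd3e (-2.12, edgeR adjusted p = 0.558) and Cd4 (0.64, edgeR adjusted p = 0.862), with a list median of 0.02.

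Of 11 antigen presentation genes, 8 were above 0 and 3 below 0 (median 0.16). The class I gene H2-D1 averaged 16.4 ± 0.643 CPM in MPTP and 11.3 ± 2.0 CPM in saline (mean ± SD, 4 libraries each, log2 fold change 0.53, edgeR adjusted p = 0.321). Its groups did not overlap, where 2.04% of all tested genes were apart as higher. It passed without saline 3, where edgeR called 0.853% of tested genes as higher. The class II loading gene H2-DMb1 had -1.08 (edgeR adjusted p = 0.579). Of 16 astrocyte genes 16 were above 0 (median 0.24; Slc1a3 0.46, edgeR adjusted p = 0.506; Ntsr2 0.42, edgeR adjusted p = 0.582), and of 16 oligodendrocyte genes 15 (median 0.22; Fa2h 0.36, edgeR adjusted p = 0.537; Ugt8a 0.28, edgeR adjusted p = 0.606). Endothelial genes had 6 of 14 above 0 (median -0.15; Ly6c1 1.17, edgeR adjusted p = 0.471; Slco1a4 -0.70, edgeR adjusted p = 0.587). Dopaminergic genes had 13 of 16 below 0 (median -0.16; Kcnj6 -0.55, edgeR adjusted p = 0.321; Ddc -0.54, edgeR adjusted p = 0.396).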
